A study of Mus musculus with 8 samples.

Results

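The regulatory regions of Cx3cr1 were the 30 accessible regions, of 129304 in the deposited table, that the table assigns to this gene as the nearest promoter. The mark measured was H3K27ac, acetylation of histone H3 at lysine 27, which lies on active promoters and enhancers, by chromatin immunoprecipitation and sequencing (ChIP-seq). The nuclei came from brains of C57BL/6 mice aged 2 years, either wild type (WT) or lacking Grn (GrnKO), the gene of the lysosomal protein progranulin. Fixed nuclei were sorted as DAPI-positive singlets that carried PU.1, a myeloid transcription factor, and lacked the oligodendrocyte-lineage factor OLIG2 and the neuronal protein NEUN. Each library came from a pool of 2 mice, and each genotype had 2 H3K27ac libraries and 2 input libraries of sonicated chromatin from the same pools. The sex of the mice and the design of the Grn allele are not given in the sources used here. The p-values measure the spread between these pools. Cx3cr1 was chosen by the difference between its H3K27ac values in WT and GrnKO. The genotype values of its regions are therefore given as a description, with no p, and nothing is read from how many of them pass a threshold.

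CX3CR1 is the G-protein-coupled receptor for fractalkine (CX3CL1), a chemokine that is made as a membrane-bound protein, in the brain mainly by neurons, and released by proteases. In the brain the receptor is carried mainly by microglia and border macrophages, and its signal bears on microglial motility, synapse remodelling and the restraint of inflammatory responses. Cx3cr1 is counted among the genes of homeostatic microglia, and its promoter is widely used to label these cells in mice.

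In the mm10 build the gene lies on the minus strand of chromosome 9, at chr9:120048683-120068296 in RefSeq's GRCm38.p6 annotation. The start site implied by the table was the same base as RefSeq's, at 120068296. The 250 bases before it, chr9:120068297-120068546 on the minus strand, lie inside the pair of promoter regions described below, which held the strongest of the 30 signals. They are printed 5′ to 3′ from RefSeq, with the matches to 3 searched motifs in capitals.
Cx3cr1 promoter: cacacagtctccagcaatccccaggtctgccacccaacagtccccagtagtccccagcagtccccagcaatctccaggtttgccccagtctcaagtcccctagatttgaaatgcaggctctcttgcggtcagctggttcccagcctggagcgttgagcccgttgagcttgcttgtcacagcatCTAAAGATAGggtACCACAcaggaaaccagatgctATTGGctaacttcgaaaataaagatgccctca
The capitals mark, in order, a match to the MEF2 motif (CTA and TAG with any 4 bases between), one to the RUNX motif TGTGGT as its reverse complement, and one to CCAAT as its reverse complement. They start 67, 54 and 32 bases before the start site. Of 32851 promoters of the same length, from 27025 genes and searched on both strands, 3.20% held the MEF2 letters, 14.0% the RUNX letters and 33.8% CCAAT. No match was found in this window to PU.1 GAGGAAG (10.6% of promoters), AP-1 TGANTCA (6.75%), C/EBP TTGCNNAA (9.56%), IRF (GAAA and GAAA with any 2 bases between, 2.98%), the E-boxes TCACGTGA (0.785%) and CACGTG (6.02%), or TATAAA (12.4%). CCAAT and TATAAA were added after the sequence was seen. The window held 53.6% G and C, against a median of 52.4% over all promoters, and 4 CpG pairs, against a median of 6. A match is a description of letters and shows no binding.

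The H3K27ac libraries held 15491642.5 to 20030832 tags and the inputs 4078179 to 14415969 tags. Values are scaled tags, that is tags per region at a library total of 10000000. WT replicate 1 stood apart: 49.4% of its tags lay in listed regions, against 63.3% to 65.7% in the other 3 H3K27ac libraries. Values in the text are therefore divided by TMM factors, 0.825 and 1.04 for the WT libraries and 1.08 for each GrnKO library, unless the scaling of the table is named. Without these factors the median log2 change of all tested genes was 0.18, and with them it was -0.05. The labels were checked on Grn, whose summed regions held 2291 and 1871 in WT and 157 and 162 in GrnKO. Summed promoter signal of 9 microglial markers was 3886 to 4418 in WT and 3371 to 3385 in GrnKO, and all 9 had a promoter region. Of 7 border macrophage markers, 5 had one, with sums of 160 to 180 in WT and 244 to 311 in GrnKO. Ms4a7 alone held 37.1 and 29.6 in WT and 132 and 105 in GrnKO, and the sums of the other 4 overlapped, at 123 and 150.1 for WT against 179 and 138 for GrnKO. The endothelial gene Flt1, the only one of 4 endothelial markers with a promoter region, held 7.04 and 11.0 in WT and 60.0 and 62.5 in GrnKO. Neuronal markers, with 2 of 5 measured, stayed at or below 3.91 in every library. Oligodendrocyte markers (4 of 5) summed to 52.4 to 75.5. Within them the genotypes did not overlap for Mog (54.0 and 47.7 in WT, 27.4 and 25.1 in GrnKO). In the opposite direction they did not overlap for Mbp (19.9 and 11.3 in WT, 30.5 and 26.3 in GrnKO). Of all tested regions, 52.7% did not overlap in either direction. Olig2 stayed at or below 2.27 in every library. Astrocyte markers (2 of 4) summed to 67.7 to 88.0 and markers of T and NK cells (1 of 6) from 7.60 to 15.6. None of the 5 monocyte markers had a promoter region.

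The Cx3cr1 regions formed one of the most strongly acetylated loci of these nuclei. They spanned 27398 bp, from chr9:120046307 to 120073705, and covered 71.5% of that span. By the annotation in the table, 14 lay in intron 1, 7 were intergenic, 2 were at the promoter, 1 in exon 2, 3 in the 3′ UTR and 3 at the transcription end. Repeats were annotated for 20% of them, against 14.9% of all regions. Of the 30, 23 overlapped another region and so shared tags with it. The mean over the 4 H3K27ac libraries ranged from 92.9 to 792.0 scaled tags per region, an 8.52-fold range, with a median of 250.5. The median of all regions in the table was 11.0. Even the weakest Cx3cr1 region was above 84.8% of all regions, and only 47 regions in the table were above the strongest one. At the strongest region the counts were 1030.5 to 1811.5 tags per library. The 95% exact Poisson interval in WT replicate 1, by the scaling of the table, was 625 to 707 around 665. Such intervals cover counting error only.

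Summed over its regions, Cx3cr1 was exceeded by 23 of 18707 genes. That sum rests partly on the number of regions, since 545 other genes had at least 30 and the median gene had 4. Per region, the Cx3cr1 mean was 295.7. By its strongest promoter region, 6 of 13959 genes were higher. These 6 were identified after their values were seen. They include the complement genes C1qb (838.4) and C1qc (821.0) and Inpp5d (826.6), which encodes the phosphatase SHIP1. Pisd-ps3 (2182), Btbd19 (975.1) and E230029C05Rik (824.8) were the others.

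**Figure D1:**
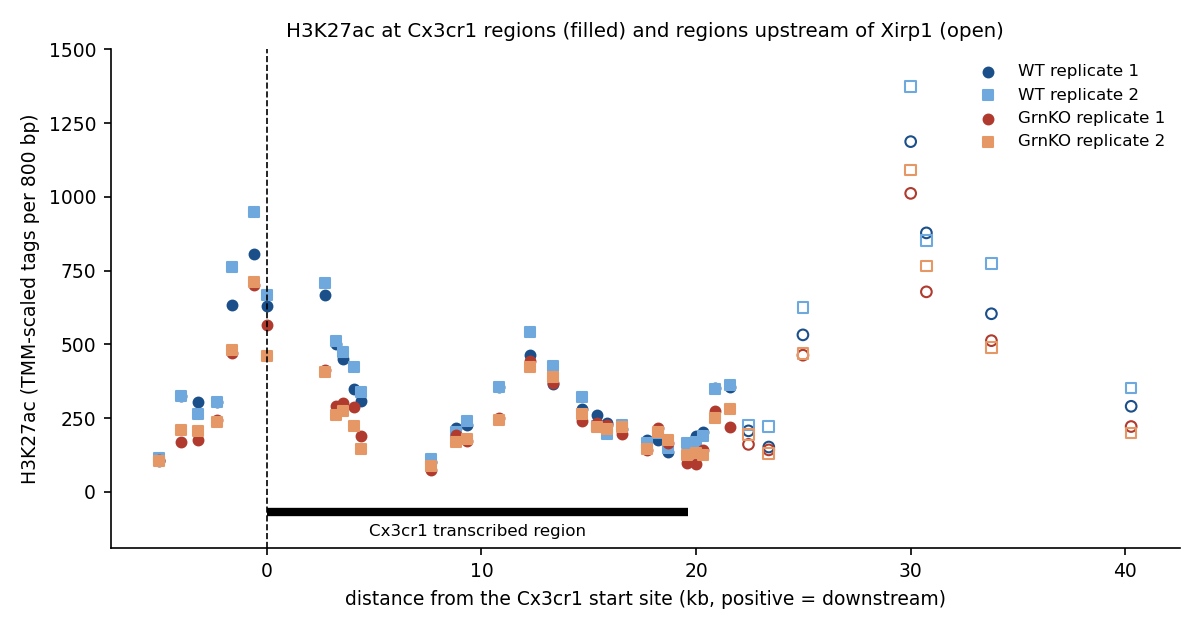
H3K27ac in each Cx3cr1 region (filled) and in the 7 regions upstream of the neighbour Xirp1 (open) for the 4 H3K27ac libraries, in TMM-scaled tags per 800 bp region, against the distance of the region's centre from the Cx3cr1 start site, positive into the gene. The strongest Cx3cr1 region lies just before the start site, at a mean of 792.0, and a strong group assigned to Xirp1 lies beyond the gene end.

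The acetylation stood above input in all 30 regions. H3K27ac minus input, averaged over genotypes, was 3.46 to 8.89 on the log2 scale, with a median of 6.95 against 3.64 over all tested regions. All 30 passed the threshold (limma on 8 libraries, Benjamini-Hochberg at 0.05, largest adjusted p = 0.0099), beside 70.7% of 96967 regions. H3K27ac and input of a pool come from the same mice, and with the pool as a block all 30 passed too. Leaving out 1 pool at a time left 25 to 28 of the 30. The strongest promoter region was 8.89 higher than input (SE 0.74, adjusted p = 0.00013, limma). Of the 30 regions, 22 and 19 held no input tag in the WT inputs, and 13 and 22 held none in the GrnKO inputs. A count of 0 allows up to 7.36 and 3.21 scaled tags in the WT inputs and 2.08 and 6.12 in the GrnKO inputs.

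Some inputs held more. A pair of overlapping regions in intron 1, starting at 120064675 and 120064327, held 161.8 and 95.6 scaled tags in the input of WT replicate 1, from 66 and 39 tags. Within WT alone, 28 of 30 Cx3cr1 regions passed over input, beside 60.4% of all regions, and this pair did not (limma adjusted p = 0.0898 and 0.0585). Within GrnKO alone, 29 of 30 passed, beside 59.6%, and the region starting at 120049184 did not (limma adjusted p = 0.113). The input of GrnKO replicate 2 held 51.0 scaled tags there. Over all Cx3cr1 regions the WT inputs summed to 318 and 103 scaled tags, and the GrnKO inputs to 116 and 109. A limma test on these input sums gave a log2 change of -0.68 (SE 0.77, adjusted p = 1.0, limma). It called 0 of 8111 genes, with 156 at an unadjusted p under 0.05, and 1110 when GrnKO replicate 2 was left out. Subtracting the input from each library moved the change of the Cx3cr1 sum from -0.41 to -0.40.

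Summed over the 30 regions, acetylation of Cx3cr1 was lower in GrnKO. WT replicates 1 and 2 held 9834 and 10431 scaled tags and GrnKO replicates 1 and 2 held 7658 and 7563. Both GrnKO libraries lay below both WT libraries, as they did in 29.4% of all tested genes, with no overlap in either direction in 54.8%. WT averaged 10133 ± 422.5 (SD, n = 2) and GrnKO 7610 ± 67.1 (SD, n = 2), a change of -24.9%. On the log2 scale the change was -0.41 (SE 0.06), which is -0.37 relative to the median of all genes. Fewer cells with acetylated regions and less acetylation per cell cannot be told apart in these pools. The values of Flt1, Ms4a7, Mog and Mbp given above also moved with genotype, and their part in the Cx3cr1 values was not tested.

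The size of this change depended on the scaling. In the table's own scaling, the WT sums were 8116 and 10804 and the GrnKO sums 8280 and 8183, so WT replicate 1 lay just below both GrnKO libraries. Of all tested genes, 13.5% had both GrnKO values below WT in that scaling and 49.7% did not overlap. The log2 change was then -0.19, or -0.36 relative to the median of all genes under that scaling. With neither TMM factors nor WT replicate 1 it was -0.39. With TMM factors, leaving out 1 library at a time gave -0.45 to -0.35.

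**Figure D2:**
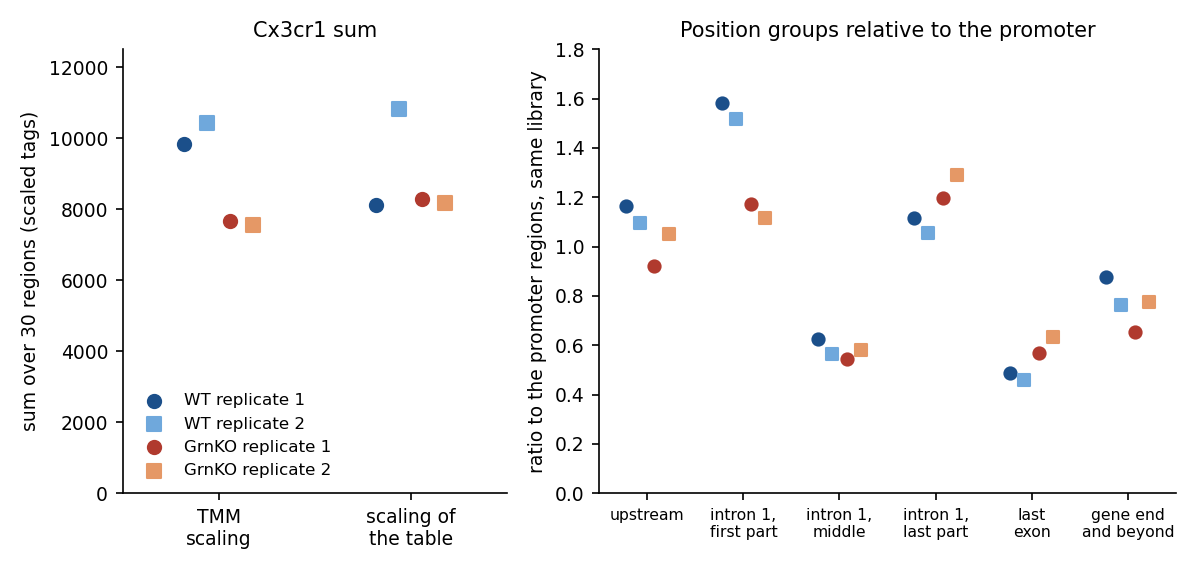
Left, the sum of H3K27ac over the 30 Cx3cr1 regions in each H3K27ac library, in scaled tags, with TMM factors and by the scaling of the table, each point being 1 library. Right, the sum of each group of regions divided by that of the 2 promoter regions in the same library, which no scaling of libraries changes. The ratio of the first part of intron 1 to the promoter, with no input subtracted, is 1.58 and 1.52 in WT and 1.17 and 1.12 in GrnKO.

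Single regions were spread widely around the sum. The median log2 change of the 30 regions was -0.38, with a range of -0.97 to 0.27. Of the 30, 27 had a negative change with TMM factors and 21 by the scaling of the table. Both GrnKO values lay below both WT values in 23 of the 30, beside 25.6% of all tested regions, above them in 2, and overlapped in 5. In 52.7% of all tested regions they did not overlap in either direction. With the table's scaling the counts were 10 below (13.3%), 4 above and 16 overlapping, with 49.1% of all regions not overlapping. With limma and Benjamini-Hochberg at 0.05, 11 were lower and 0 higher, beside 2.92% and 6.80% of 80728 tested regions, or 9.72% in either direction. The counts were 0 lower (0.412%) and 0 higher (8.15%) by the scaling of the table. The count of lower regions was 5 without GrnKO replicate 1 and 4 without GrnKO replicate 2. These counts only describe the members, since the same contrast chose the gene.

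At the promoter the signal was strongest and the change moderate. The region just before the start site, chr9:120068498-120069298, held 806.0 and 948.9 in WT and 701.2 and 711.9 in GrnKO. Across the start site, the region chr9:120067902-120068702 held 630.0 and 667.6 in WT and 564.0 and 461.4 in GrnKO. In both regions, which overlap each other, every GrnKO value was below every WT value with TMM factors, beside 25.6% of all tested regions, and the genotypes overlapped in the table's scaling. The changes were -0.31 (SE 0.11) and -0.35 (SE 0.12) on the log2 scale. Summed, the pair had a mean of 1526 in WT and 1219 in GrnKO, a difference of -20.1%. By the scaling of the table the changes were -0.08 and -0.12.

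Upstream of the promoter, 5 regions had their centres at -5009 to -1622 bp from the start site. The strongest, chr9:120069518-120070318, held 633.1 and 760.3 in WT and 469.8 and 479.9 in GrnKO. Both GrnKO values were below both WT values there, beside 25.6% of all tested regions, and the log2 change was -0.55 (SE 0.12). The upstream group summed to 1671 and 1769 in WT and 1166 and 1234 in GrnKO, a change of -30.2%. Its outermost region had a change of only -0.04 (SE 0.21), and the next one inward, at chr9:120071908-120072708, had -0.79 (SE 0.16).

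The first part of intron 1 had the most negative summed change of the groups along the locus and its 2 most negative single regions. This group of 5 regions lies 2708 to 4406 bp after the start site. Each region overlaps the next and shares tags with it, so the 5 are not separate measurements. Its strongest region, chr9:120065188-120065988, held 665.6 and 706.6 in WT and 414.4 and 406.3 in GrnKO. In WT it was above the promoter region across the start site in both libraries, and in GrnKO below it in both. Its log2 change was -0.74 (SE 0.12). The region chr9:120064675-120065475, which overlaps it and carries a SINE repeat, held 501.3 and 512.3 in WT and 291.6 and 261.4 in GrnKO. That is a change of -0.87 (SE 0.13), with no input subtracted. The input of WT replicate 1 held 161.8 scaled tags there, and the region did not pass over input within WT (limma adjusted p = 0.0898). The most negative change of the 30 was at chr9:120063490-120064290, with 309.3 and 337.3 in WT and 188.7 and 143.5 in GrnKO. That is -0.97 (SE 0.17) with TMM factors and -0.74 by the scaling of the table. In all 5 regions of the group both GrnKO values were below both WT values with TMM factors, beside 25.6% of all tested regions, and in the table's scaling the region starting at 120063842 overlapped. The sum of the group differed by -41.0%.

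The difference was smaller farther into the intron. In the middle of intron 1, the sum of 4 regions differed by -24.1%, among them the weakest of the locus, chr9:120060260-120061060, at 99.3 and 109.5 in WT and 74.1 and 88.8 in GrnKO. In the last part, the sum of 5 regions differed by -8.59%. The strongest of these, chr9:120055611-120056411, held 465.0 and 542.1 in WT and 444.1 and 423.3 in GrnKO. Its change was -0.21 (SE 0.13) with TMM factors and 0.015 by the scaling of the table, so that its direction depended on the scaling.

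Over the last exon the direction of single regions differed. The 4 regions there summed to 698 and 741 in WT and 719 and 743 in GrnKO, and these values overlap. The most positive change of the 30 was at chr9:120049184-120049984, with 133.7 and 149.0 in WT and 165.5 and 176.5 in GrnKO, a log2 change of 0.27 (SE 0.18). It overlaps the region chr9:120049653-120050453, the other one whose GrnKO values were both above WT, where the log2 change was 0.15. At and beyond the gene end, 5 regions again had lower values in GrnKO, with sums of 1258 and 1233 in WT and 828 and 908 in GrnKO, a change of -30.3%.

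**Figure D3:**
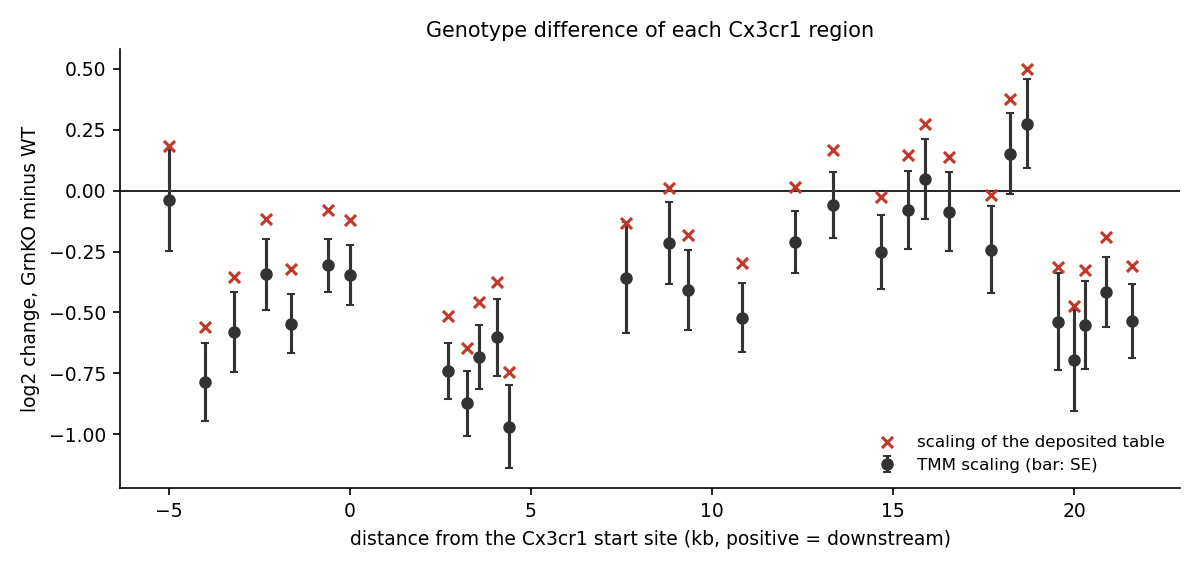
The log2 change of H3K27ac, GrnKO minus WT, in each Cx3cr1 region against the distance of its centre from the start site, with TMM factors (error bars, SE) and by the scaling of the table. The lowest point, at -0.97, is in the first part of intron 1, and the highest, at 0.27, is over the last exon.

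Ratios within a library do not depend on how libraries are scaled. They were taken without subtracting input, and no ratio with input subtracted was computed. In the first part of intron 1, the input of WT replicate 1 held 19.6, 161.8 and 95.6 scaled tags. These were in the regions starting at 120065188, 120064675 and 120064327. It held 0 in both promoter regions, so the ratios of WT replicate 1 to the promoter include this input. The first part of intron 1 held 1.58 and 1.52 times the promoter signal in WT, and 1.17 and 1.12 times in GrnKO. The means were 1.55 ± 0.047 (SD, n = 2) and 1.14 ± 0.039 (SD, n = 2), and the genotypes did not overlap. With 3 non-overlapping intron regions and the strongest promoter region alone, both WT ratios were higher, at 1.77 and 1.60, than the GrnKO ratios of 1.29 and 1.16. Set against the last exon, the first part of intron 1 held 3.26 and 3.31 times its signal in WT and 2.06 and 1.76 times in GrnKO. Without input subtraction, WT replicate 1 stood with WT replicate 2 in all 3 ratios, each of which has the first part of intron 1 as numerator. The ratio of the upstream group to the promoter was 1.16 and 1.09 in WT, against 0.922 and 1.05 in GrnKO. For the middle of intron 1 it overlapped, at 0.624 and 0.563 in WT and 0.543 and 0.582 in GrnKO. At the gene end and beyond it overlapped too (0.876 and 0.762 in WT, 0.654 and 0.774 in GrnKO). It was higher in GrnKO for the last part of intron 1 (1.11 and 1.06 in WT, 1.19 and 1.29 in GrnKO). The same held for the last exon (0.486 and 0.459 in WT, 0.568 and 0.633 in GrnKO). The groups of regions were drawn by position with their values known, and no test was made of the ratios.

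The size of the summed change did not rest on the overlap between regions. With 18 non-overlapping regions the log2 change was -0.43. Without the promoter, 28 regions gave -0.43, and the promoter alone gave -0.32.

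Assignment to the nearest promoter leaves strong regions next to Cx3cr1 with another gene. On the downstream side the neighbour is Xirp1, which encodes an actin-binding protein of striated muscle. Of its 10 regions, 7 lie upstream of its own start site, toward Cx3cr1, and the 3 at or past that start site had means of only 4.82 to 5.29. The strongest of the 7, chr9:120037899-120038699, held 1187 and 1373 in WT and 1011 and 1091 in GrnKO, above every region assigned to Cx3cr1. Its change was -0.28 (adjusted p = 0.074, limma). The 7 regions summed to 3848 and 4424 in WT and 3188 and 3337 in GrnKO, and adding them to Cx3cr1 gave -0.39 for the sum of 37 regions.

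Around the locus, 40 regions of other genes lay within 100000 bp, of which 29 were tested. By limma with Benjamini-Hochberg adjustment, 2 were lower and 0 higher, beside 2.92% and 6.80% of all tested regions, with 10 at an unadjusted p under 0.05. Both are assigned to Xirp1. The region starting at 120034138 held 603.4 and 774.7 in WT and 512.2 and 489.1 in GrnKO (log2 change -0.45, SE 0.13, limma adjusted p = 0.030). The region starting at 120027628 held 289.8 and 352.3 in WT and 221.2 and 199.8 in GrnKO (-0.60, SE 0.16, limma adjusted p = 0.021). In neither did the genotypes overlap, as in 52.7% of all tested regions. Neither passed by the scaling of the table (limma adjusted p = 0.727 and 0.479). The count of lower regions was 0 when WT replicate 2, GrnKO replicate 1 or GrnKO replicate 2 was left out, and 7 without WT replicate 1. Next on that side is Csrnp1, a nuclear protein gene, with 13 tested regions and none called. On the upstream side, Ccr8, a chemokine receptor gene of T cells, had 2 regions with means of 2.14 and 4.16, and Slc25a38, a mitochondrial carrier gene, had 4 tested regions and none called.

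Genes of fractalkine signalling showed no common direction. Of 32 listed genes 31 were tested on the sum of their regions, and 1 was higher and 2 lower (limma, Benjamini-Hochberg at 0.05), beside 8.60% higher and 5.88% lower (14.5% in either direction) of 15380 genes. Their median log2 change was -0.05, the same as that of all genes. The ligand gene Cx3cl1 had little signal in these nuclei, 61.4 and 65.5 in WT and 26.9 and 34.2 in GrnKO (log2 change -1.04, SE 0.33, limma adjusted p = 0.053). The genes of the proteases that shed the ligand did not pass either: Adam10 had -0.35 (limma adjusted p = 0.062), Adam17 0.05 (limma adjusted p = 0.782) and Ctss, which encodes cathepsin S, -0.19 (limma adjusted p = 0.222), with 0.040 for Ctss by the scaling of the table. Itga4, an integrin chain, was higher, at 544 and 442 in WT and 1071 and 772 in GrnKO (0.89, SE 0.16, limma adjusted p = 0.0022). Lower were the kinase gene Src (-0.64, SE 0.14, limma adjusted p = 0.0058) and Grk6, a receptor kinase that desensitises G-protein-coupled receptors (-0.65, SE 0.19, limma adjusted p = 0.039). Itga4 also passed by the scaling of the table (10.6% of genes higher, 1.08% lower), and the other 2 did not. The count of lower genes was 0 without GrnKO replicate 2, 1 without GrnKO replicate 1 and 4 without WT replicate 2, and that of higher genes 3 and 4 without WT replicates 1 and 2. Src was lost without GrnKO replicate 2 (limma adjusted p = 0.113) and Grk6 without either GrnKO library and with DESeq2 (adjusted p = 0.056). Cx3cl1 passed without WT replicate 1 (limma adjusted p = 0.028) and Adam10 without WT replicate 2 (limma adjusted p = 0.015).

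Other chemokine receptor genes moved both ways. Of 22 listed, 19 were tested, with 4 higher and 6 lower (limma, Benjamini-Hochberg at 0.05), beside 8.60% higher and 5.88% lower of all tested genes. Their median was -0.23, against -0.05 over all genes. Cxcr4, the receptor of CXCL12, held 569 and 396 in WT and 1540 and 1485 in GrnKO (1.67, SE 0.15, limma adjusted p = 1.4e-05). Also higher were Ccrl2 (0.71, limma adjusted p = 0.0034), Cxcr1 (2.53, limma adjusted p = 0.0045) and Ackr3 (0.37, limma adjusted p = 0.048), an atypical receptor of CXCL12. Cxcr1 had little signal, with sums over 2 regions of 8.99 and 5.24 in WT and 48.4 and 41.3 in GrnKO. Lower were Ccr7 (-1.21, limma adjusted p = 0.0024), Ccr6 (-0.47, limma adjusted p = 0.00093), Ccr3 (-0.57, limma adjusted p = 0.011), Ccr1 (-0.28, limma adjusted p = 0.013), Xcr1 (-0.47, limma adjusted p = 0.031) and Ccr2 (-0.53, limma adjusted p = 0.043). Under the table's scaling, Cxcr4, Ccrl2, Cxcr1 and Ccr7 passed and the other 6 did not, beside 10.6% of genes higher and 1.08% lower. Without GrnKO replicate 1 the counts were 2 higher and 3 lower, and without GrnKO replicate 2 they were 2 and 2. Cxcr4, Ccrl2, Ccr6 and Ccr7 passed with any 1 library left out. Xcr1 also missed without WT replicate 2 (limma adjusted p = 0.056). With DESeq2 on the recovered tags Ccr1 and Ccr2 missed (DESeq2 adjusted p = 0.058 for both), and Ccr2 missed with TMM factors from gene sums (limma adjusted p = 0.055). In size, the -0.41 of Cx3cr1 lay between the changes of Ccr1 and Xcr1, and it is a description with no p.

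Beside Cx3cr1, the 4 genes of homeostatic microglia listed for comparison of size also had negative changes with TMM factors. Of all tested genes, 5.88% were called lower with these factors. Tmem119 had -0.37 (SE 0.09, limma adjusted p = 0.017), Selplg, which encodes the P-selectin ligand, -0.57 (SE 0.09, limma adjusted p = 0.00081), and Csf1r, which encodes the receptor of the survival factor CSF1, -0.36 (SE 0.08, limma adjusted p = 0.0098). P2ry12, a purine receptor gene, had -0.22 (SE 0.07, limma adjusted p = 0.063) and 0.0087 by the scaling of the table. None of the 4 passed by that scaling, under which 1.08% of all tested genes were lower. Without GrnKO replicate 1, Tmem119 (limma adjusted p = 0.488) and Csf1r (limma adjusted p = 0.231) did not pass, and without WT replicate 1 P2ry12 did (limma adjusted p = 0.0081).

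**Figure D4:**
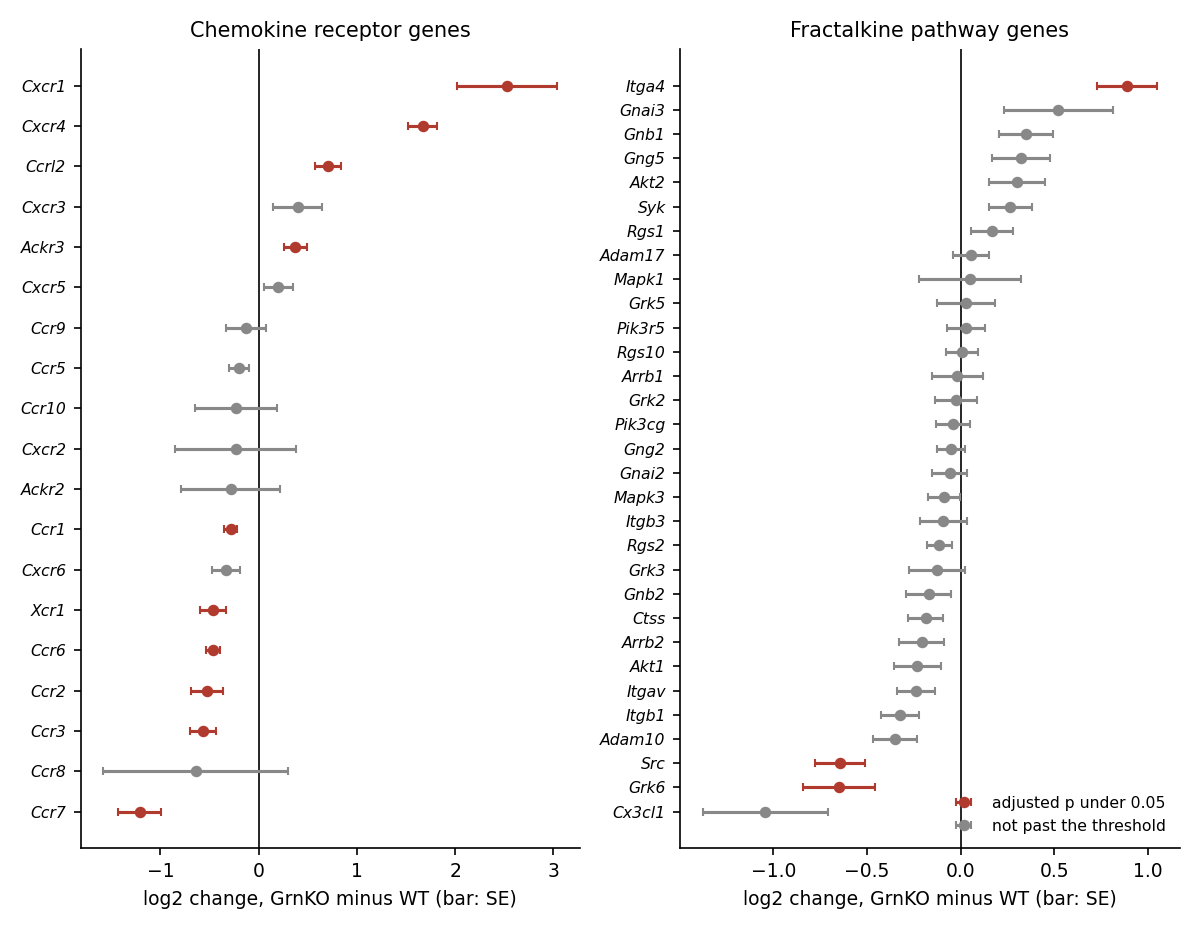
The log2 change of summed H3K27ac, GrnKO minus WT, with TMM factors (error bars, SE) for the 19 tested chemokine receptor genes other than Cx3cr1 (left) and the 31 tested genes of fractalkine signalling (right). Red points passed the threshold, and they lie on both sides of 0, with Cxcr4 at 1.67 and Ccr7 at -1.21.

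By the pattern of its 4 H3K27ac values, Cx3cr1 was most like Mir5130, among 164 genes with a mean within 2-fold of its own. Likeness was the Euclidean distance between log2 sums after the mean of each gene was removed, and it was 0.011 for Mir5130. Srgap2 followed at 0.045, Cmtm7 at 0.048, the sialyltransferase gene St3gal6 at 0.068 and 4921509O07Rik at 0.084. Srgap2 held 7092 and 7615 in WT and 5720 and 5660 in GrnKO as sums. All of these genes were measured in the same 4 libraries and share their depth and scaling.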

How the data were processed

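H3K27ac and input were measured in 4 libraries each. Per the file headers, the authors deposited a signal, the tags in each 800 bp region scaled to 10000000 tags per library with HOMER-style tag directories, at merged reproducible ATAC-seq peaks. Bowtie2, HOMER, DESeq2 and the mm10 build are named in the submitters' processing notes. Multiplying by the library totals gave whole read ends for 100% of values, within 0.25 of a read end. The edgeR quasi-likelihood test on these recovered tags called 7785 regions.

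The test was limma 3.58.1 in R 4.3.3 (lmFit, and eBayes with trend) on log2(value + 1) after TMM scaling with edgeR 4.0.16, over 80728 regions passing filterByExpr (minimum 10 tags) and, for sums over the regions of a gene, 15380 genes. Fold changes are on that scale, which understates changes of low values. H3K27ac was set against input without TMM. Alternatives were other scalings, pseudocount and filter, edgeR, DESeq2 1.42.0 and leaving out libraries. Same-numbered libraries come from different mice, so the replicate numbers do not pair WT with GrnKO.

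Library values are given for the 6 Cx3cr1 regions with the highest mean, those within 1000 bp of the start site and the most negative and most positive ones. Other regions were named after their values were seen. The pathway, receptor and comparison lists came from general knowledge. Listed genes past the threshold were named, with Cx3cl1, Adam10, Adam17 and Ctss, the nearest 2 genes on each side and the 5 genes most like Cx3cr1. The members and lists were chosen with earlier results of these data known.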

Additional observations from a re-analysis of the deposited data

How the results depend on the processing

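By the scaling of the table, without TMM factors, the Cx3cr1 sum changed by -0.19 in place of -0.41, and counts of lower calls fell: 333 in place of 2355 regions, 166 in place of 904 genes, 0 in place of 11 Cx3cr1 regions, 0 in place of 2 regions around Cx3cr1, 0 in place of 2 pathway genes and 1 in place of 6 receptor genes. With no filter, 1363 regions, 6 Cx3cr1 regions and 1 region around Cx3cr1 were lower, with TMM factors from gene sums 1 region around it, and with DESeq2 1 pathway gene. The replicate block gave 3988 lower regions and 5 lower pathway genes, and same-numbered libraries deviated together with r = 0.03 over 80728 regions. With only the promoter regions the Cx3cr1 change was -0.32. Without TMM factors and WT replicate 1, an alternative added after seeing the data, 13171 regions changed (9657 higher), as did 2111 higher genes, 5 lower regions around Cx3cr1 and 3 higher pathway genes. Leaving out 1 library at a time gave 2171 to 13596 changed regions against 7843 (1810 to 9507 higher against 5488, 361 to 4612 lower) and 1023 to 3524 changed genes against 2226 (744 to 2009 higher against 1322, 279 to 1515 lower). Around Cx3cr1 it gave 0 to 2 higher and 0 to 7 lower regions, for pathway genes 1 to 4 higher and 0 to 4 lower, and for receptor genes 2 to 4 higher and 2 to 7 lower. For Cx3cr1 it gave 4 to 13 lower regions, a change of the sum of -0.45 to -0.35, 25 to 28 regions above input and, in input, 0 to 1110 changed genes. The cause of these differences was not tested.

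Some log2 changes turned direction. By the scaling of the table these were Ctss (0.040), P2ry12 (0.0087) and the Cx3cr1 regions starting at 120072905 (0.18), 120059073 (0.0087), 120055611 (0.015), 120054558 (0.17), 120052490 (0.15) and 120051356 (0.14). Leaving out 1 library at a time gave -0.10 to 0.054 for the region at 120072905 (0.00019 without GrnKO replicate 2), -0.17 to 0.079 for 120054558, -0.17 to 0.040 for 120052490, -0.049 to 0.18 for 120052024 and -0.16 to 0.013 for 120051356. Without TMM factors and WT replicate 1 the region at 120052490 had 0.096. Of 891 alternative values, 723 kept their direction and side of the threshold, or stayed within the spread. The cause was not tested.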
